A study of Homo sapiens with 18 samples.

Results

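CWR22Rv1 cells that received Stat3 siRNA were compared with CWR22Rv1 cells that received a scrambled siRNA, which took in 6 of the 18 arrays of the series and all 19775 genes measured on them. The 3 arrays titled CWR_Stat3 were set against the 3 titled CWR_ctrl, and a gene with several probe sets was read from the one whose mean was highest across all 18 arrays, leaving out probe sets assigned to more than 1 symbol. CWR22Rv1 is an established line from a relapsed human prostate cancer xenograft. Every culture was transfected with Lipofectamine and harvested 48 h later, so the controls also carried lipid reagent and a short RNA duplex. The other arrays, also 3 for each group, held CWR22Rv1 cells with Stat5a/b siRNA and the androgen-insensitive prostate cancer line DU145 with scramble, Stat3 or Stat5a/b siRNA. The labels describe unpooled triplicates without saying that they were separate cultures, so p-values measure a spread between arrays that may be technical. Because these are bulk RNA samples, fewer cells of a kind and less RNA per cell cannot be told apart.

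STAT3 is a latent transcription factor. Cytokines of the IL-6 family bind receptors that share the signal transducer gp130, Janus kinases then phosphorylate STAT3, and the paired protein enters the nucleus and binds DNA at palindromic sites. In epithelial cancers it is known for driving genes of growth, survival and acute-phase signalling, among them its own inhibitor SOCS3. A small interfering RNA directs cleavage of the messenger it matches.

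Values are log2 expression levels, a change is the mean of the 3 Stat3 siRNA arrays minus the mean of the 3 scramble arrays, and the number after ± is its standard error. Where counts at an unadjusted p under 0.05 are given for a list, 9.62% of all genes were higher and 7.27% lower by that rule. A gene was called, and is said to have risen or fallen, at a Benjamini-Hochberg adjusted p under 0.05 in limma. Stat3 siRNA raised 544 genes (2.75% of those tested) and lowered 400 (2.02%). Every list's count of rises and falls below is to be read against these shares over all genes, which most paragraphs repeat. Changes were small: 9 genes changed at least 2-fold, 1 of them upward, and 49 rises and 76 falls reached 1.5-fold. The median change was 0.34 among rises, -0.40 among falls and -0.0042 over all genes. All 544 rises and 398 of the 400 falls had arrays that did not overlap between the groups, a pattern also met by 17.5% of all genes upward and 14.9% downward. The excess of rises turned with scaling, since 57.6% of calls were rises in the deposited values, 46.2% after a further quantile normalisation and 48.1% after cyclic loess. Of the genes called, 174 rises and 160 falls were also called whichever of the 6 arrays was left out. The total was 508, 501 and 448 without scramble array 1, 2 or 3, and 466, 547 and 501 without Stat3 siRNA array 1, 2 or 3.

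**Figure D1:**
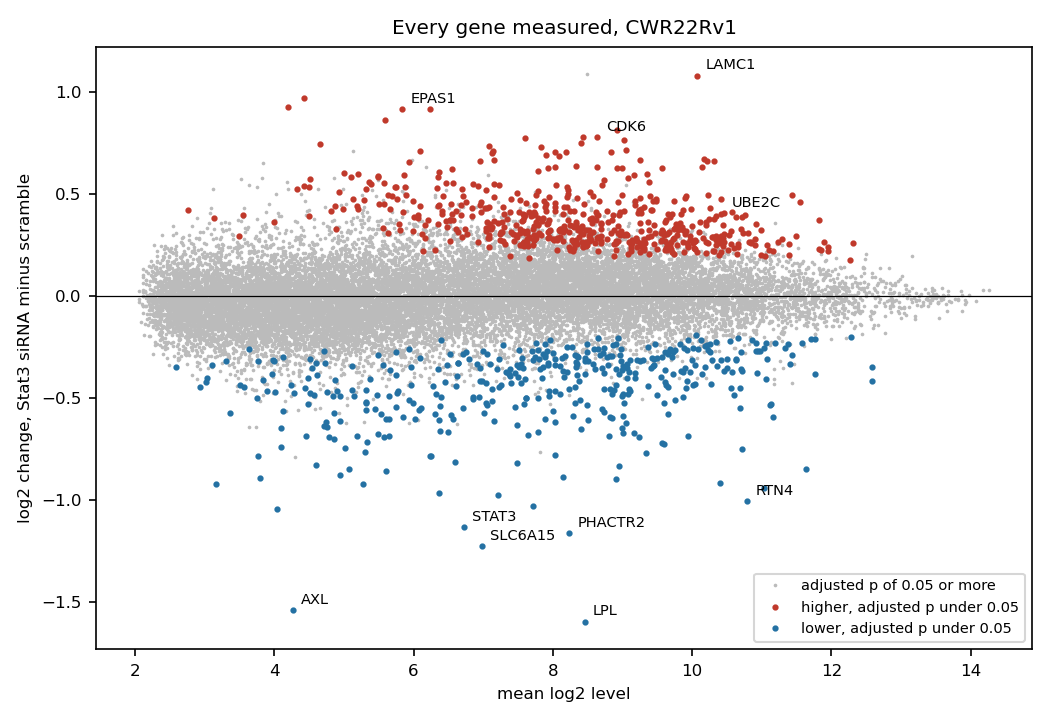
Log2 change with Stat3 siRNA (vertical axis) against mean log2 level (horizontal axis) for each of the 19775 genes in CWR22Rv1, with 544 called rises in red, 400 called falls in blue and other genes in grey. LAMC1 is the only called gene above a change of 1, and LPL and AXL lie lowest.

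Array quality measures were close between the groups, apart from a wider ACTB range on the Stat3 siRNA arrays. Arrays of one group correlated at 0.9971 to 0.9975 over probe sets and arrays of different groups at 0.9956 to 0.9963. The 3' minus 5' difference of the ACTB control probe sets was 0.750 to 0.769 on scramble and 0.632 to 0.848 on Stat3 siRNA arrays, and for GAPDH it was 0.062 to 0.097 and 0.072 to 0.099. Prostate luminal markers were measured for 8 of 10 genes, with scramble means from 6.76 for KLK3 to 12.57 for KRT18, and their summed level was 80.8 to 81.1 on scramble and 80.7 to 81.2 on Stat3 siRNA arrays. Neuroendocrine markers, of which 9 of 11 were measured, summed to 64.8 to 65.1 and 63.4 to 63.8 with none called. Those sums did not overlap, and their part in the falls below was not tested.

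The targeted transcript fell with its siRNA, and other STAT genes were not called. The probe set that stands for STAT3 read 7.40, 7.21 and 7.24 on scramble and 6.04, 6.31 and 6.11 on Stat3 siRNA arrays, which left 45.7% of control. A pair of further STAT3 probe sets left 30.9% and 39.5%. The remaining probe set left 96.0% (adjusted p = 0.977 over probe sets), with 4.52, 4.52 and 4.46 against 4.37, 4.43 and 4.52, so its groups overlapped. STAT5A changed by -0.12 ± 0.13 (adjusted p = 0.721) and STAT5B by -0.12 ± 0.091 (adjusted p = 0.591). Every STAT5B probe set was lower, leaving 84.2% to 93.0% of control, and none was called. The groups of the one that stands for STAT5B did not overlap, as in 14.9% of all genes downward. STAT4 changed by 0.059 ± 0.25 and STAT6 by 0.15 ± 0.061 (adjusted p = 0.955 and 0.199). In DU145 STAT3 fell further, and the difference between the lines was 0.49 ± 0.13 (adjusted p = 0.0495), a call kept in 1 and lost in 11 of the 12 fits that left out an array (0.0182 to 0.12).

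Upstream of STAT3, a pair of IL-6 family receptors fell. LIFR, the receptor for leukaemia inhibitory factor, read 8.38, 8.15 and 8.32 on scramble and 7.68, 7.70 and 7.78 on Stat3 siRNA arrays, a change of -0.56 ± 0.093 (adjusted p = 0.00208). Its groups were well apart, its 4 other probe sets changed in the same direction, and it kept its call whichever array was left out. OSMR, the oncostatin M receptor, changed by -0.26 ± 0.070 (adjusted p = 0.0475) and lost its call whichever of the 6 arrays was left out (adjusted p 0.1 to 0.149). With the mean of all probe sets neither receptor was called. LIFR changed by -1.15 in DU145, a difference between the lines of 0.59 ± 0.13 (adjusted p = 0.0251), which was not called in 7 of the 12 fits that left out an array. The shared transducer IL6ST, which encodes gp130, read 10.12, 9.91 and 9.95 against 9.77, 9.76 and 9.83 (adjusted p = 0.116). Among ligands IL6 changed by -0.33 (adjusted p = 0.172), and in all 0 of the family's 14 measured genes rose and 2 fell.

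Among 17 other receptors that use STATs, 2 fell (11.8%, beside 2.02% of all genes) and 0 rose. IFNGR1 and IFNAR2, subunits of the interferon-gamma and type I interferon receptors, changed by -0.25 ± 0.066 and -0.23 ± 0.062. IFNGR1 lost its call whichever of the 6 arrays was left out (adjusted p 0.0674 to 0.162), and IFNAR2 kept it only without scramble array 3 (otherwise 0.0842 to 0.177). Their partner chains were measured at 0.21 for IFNGR2 and 0.27 for IFNAR1, neither called. None of 8 Janus and Src kinases passed the limma test, with 1 higher at an unadjusted p under 0.05. JAK2 changed by 0.28 and JAK1 changed by -0.068. The JAK and Src count was also 0 with each array left out and 1 with the 9 CWR22Rv1 arrays fitted alone.

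The brakes on the pathway were not called either. Of 19 SOCS, PIAS and phosphatase genes 0 rose and 0 fell, with 2 higher and 3 lower at an unadjusted p under 0.05 and a median change of 0.058. SOCS3, the feedback inhibitor that STAT3 induces, read 5.87, 5.77 and 5.81 on scramble and 5.86, 5.91 and 5.63 on Stat3 siRNA arrays, so the groups overlapped (adjusted p = 0.976). CISH, the feedback inhibitor better known downstream of STAT5, changed by -0.079 ± 0.060. SOCS2 and PTPN1, a tyrosine phosphatase of Janus kinases, stood at 0.32 and 0.30 and SOCS5 at -0.29 without passing.

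Of 32 textbook STAT3 targets 3 rose and 1 fell, shares of 9.38% and 3.12% beside 2.75% and 2.02% of all genes. The list's median change was -0.003 beside -0.0042 over all genes. With the 9 CWR22Rv1 arrays fitted alone 6 of the targets rose and 2 fell. NNMT, nicotinamide N-methyltransferase, read 6.01, 6.05 and 6.01 on scramble and 5.71, 5.53 and 5.21 on Stat3 siRNA arrays (-0.54 ± 0.14, adjusted p = 0.0388). It was the fall in the list, and it kept its call only without Stat3 siRNA array 1 (otherwise adjusted p 0.0876 to 0.19). The rises were in genes that STAT3 is known to induce. CCND1, cyclin D1, read 12.21, 12.19 and 12.15 against 12.42, 12.48 and 12.43 (0.26 ± 0.061, adjusted p = 0.0209). KLF4 changed by 0.30 ± 0.072 (adjusted p = 0.0244) and FOS by 0.59 ± 0.16 (adjusted p = 0.0477). Without any one array CCND1 had adjusted p-values of 0.0558 to 0.0947 and FOS of 0.0633 to 0.183, and KLF4 kept its call only without Stat3 siRNA array 2 (otherwise 0.0584 to 0.109).

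Of the 28 textbook targets that were not called, 15 had values below 0 and 13 above. Changes were -0.14 ± 0.15 for MYC, 0.025 ± 0.059 for BIRC5, -0.066 ± 0.079 for MCL1, -0.044 ± 0.099 for BCL2L1 and -0.043 ± 0.073 for PIM1. MYC read 10.81, 10.73 and 10.79 on scramble and 10.66, 10.65 and 10.60 on Stat3 siRNA arrays, so its groups were apart although the fitted error was larger than the change. JUNB changed by 0.099 ± 0.088 and MMP9 by -0.12 ± 0.095. The values farthest below 0 were -0.48 for HGF, hepatocyte growth factor, and -0.34 for LBP, an acute-phase protein, and BCL6 and CEBPD stood at 0.26 each. CDKN1A, the p21 inhibitor, read 9.02, 9.08 and 9.03 against 9.36, 9.38 and 9.38 and missed the threshold (0.33 ± 0.091, adjusted p = 0.0512).

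Promoter sequences were read from RefSeq, build GRCh38.p14, over 250 bases before and 50 after the start, to see how often the palindrome TTCNNNGAA, which reads alike on both strands, occurred. It was in 6.95% of 15382 promoters of tested genes, in 5.83% of 446 rises and in 8.28% of 338 falls with an entry. The stricter TTCCNGGAA, contained in the first motif, was in 1.23%, 0.673% and 2.07%, that is in 3 rises and 7 falls. Among these falls KIR3DL1 and KIR3DL3 have windows that read alike from the motif onward, so they may not be separate readings. The falls GPR6, KIR3DL1, KIR3DL3 and TMX3 lost their call in 6, 4, 5 and 5 of the fits that left out an array. The rises EIF2AK3-DT, PLSCR4 and UEVLD lost it in 2, 2 and 5. A match describes letters and not a bound site. Among the 30 genes with the largest changes 26 had an entry and 2 held the first motif, and FHL2, PIKFYVE and POLE3 are added, after their values were seen, as the falls with the stricter motif whose call held whichever array was left out. The motif is in capitals, 5' to 3' on the gene's strand.
HS6ST2, chrX:132961321-132961340, minus strand: ggaaggacggTTCTGGGAAa
LINC00324, chr17:8224052-8224080, minus strand: agctgaatccTTCACTGAAagccccgtca
FHL2, chr2:105438700-105438728, minus strand: accctttggaTTCCTGGAAaatatgaggc
PIKFYVE, chr2:208266063-208266091, plus strand: ccctggcttcTTCCAGGAAggctgaagcg
POLE3, chr9:113410901-113410929, minus strand: gcccactccaTTCCAGGAAagaaaaaaga

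In HS6ST2 the match starts 40 bases after the gene's start, within the transcribed part, and in LINC00324 27 bases before it. In FHL2, PIKFYVE and POLE3 it starts 205, 182 and 170 bases before. FHL2, a LIM-domain coregulator, changed by -0.78 ± 0.16 (adjusted p = 0.00782), PIKFYVE, a phosphoinositide kinase of endosomes, by -0.60 ± 0.087 (adjusted p = 0.000767), and POLE3, a histone-fold subunit of DNA polymerase epsilon, by -0.49 ± 0.061 (adjusted p = 0.000217). FHL2 averaged 4.15 on scramble and 3.37 on Stat3 siRNA arrays, a low level, since 25% of genes averaged under 4.34 on scramble arrays. In DU145 FHL2 changed by 0.35 and was not called. The 2 other probe sets of PIKFYVE were lower with 0 called, and its adjusted p in limma reached 0.19 under another processing setting.

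The largest falls were in LPL, AXL and SLC6A15. LPL, lipoprotein lipase, which releases fatty acids from circulating triglyceride, read 9.32, 9.22 and 9.22 on scramble and 7.72, 7.65 and 7.61 on Stat3 siRNA arrays (-1.59 ± 0.23, adjusted p = 0.00074). AXL, a receptor tyrosine kinase for GAS6 linked to mesenchymal and drug-tolerant states, read 5.11, 4.93 and 5.06 against 3.55, 3.62 and 3.32 (-1.54 ± 0.22, adjusted p = 0.00056). The Stat3 siRNA readings of AXL lay under 4.34, the 25th percentile of gene means on scramble arrays. Each group lay far from the other in both genes. SLC6A15, a neutral amino acid transporter of neurons, read 7.67, 7.47 and 7.63 against 6.47, 6.34 and 6.28 (-1.23 ± 0.19, adjusted p = 0.00126). PHACTR2, a phosphatase and actin regulator, read 8.81, 8.82 and 8.82 against 7.71, 7.60 and 7.66 (-1.16 ± 0.079, adjusted p = 4.9e-07).

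Further falls also had groups that did not overlap. RTN4, the reticulon that shapes the endoplasmic reticulum and is also known as Nogo, read 11.31, 11.27 and 11.29 against 10.33, 10.32 and 10.21 (-1.0 ± 0.054, adjusted p = 4.7e-08). RCN2, a calcium-binding protein of the same compartment, read 11.53, 11.53 and 11.43 against 10.56, 10.50 and 10.60 (-0.94 ± 0.051). BCL7B, a subunit of the SWI/SNF chromatin remodeller, changed by -1.03 ± 0.10 and HMGN5, a nucleosome-binding protein, by -0.92 ± 0.13. SLITRK4, a synaptic adhesion protein, changed by -0.92 ± 0.071 and DSEL, a dermatan sulfate epimerase, by -0.90 ± 0.15. BRINP3 changed by -1.04 ± 0.20. All of these kept their calls whichever array was left out.

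Of the 15 largest falls 3 lost their call in some fit that left out an array. LINGO1, a partner of the Nogo receptor, read 7.71, 7.71 and 7.69 against 6.75, 6.56 and 6.87, and lost its call whichever of the 6 arrays was left out (adjusted p 0.0848 to 0.144). HS6ST2, a heparan sulfate sulfotransferase, changed by -0.96 ± 0.20 and had an adjusted p of 0.0526 without scramble array 1. ANXA3, an annexin, read 4.14, 3.5 and 3.22 against 2.83, 2.22 and 3.04, and had 0.0513 without Stat3 siRNA array 2. All of its readings were low, under the 25th percentile of 4.34 for gene means on scramble arrays. The 15 falls, STAT3 among them, included 11 genes with a further 23 probe sets, all 23 of which were lower and 13 called lower.

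**Figure D2:**
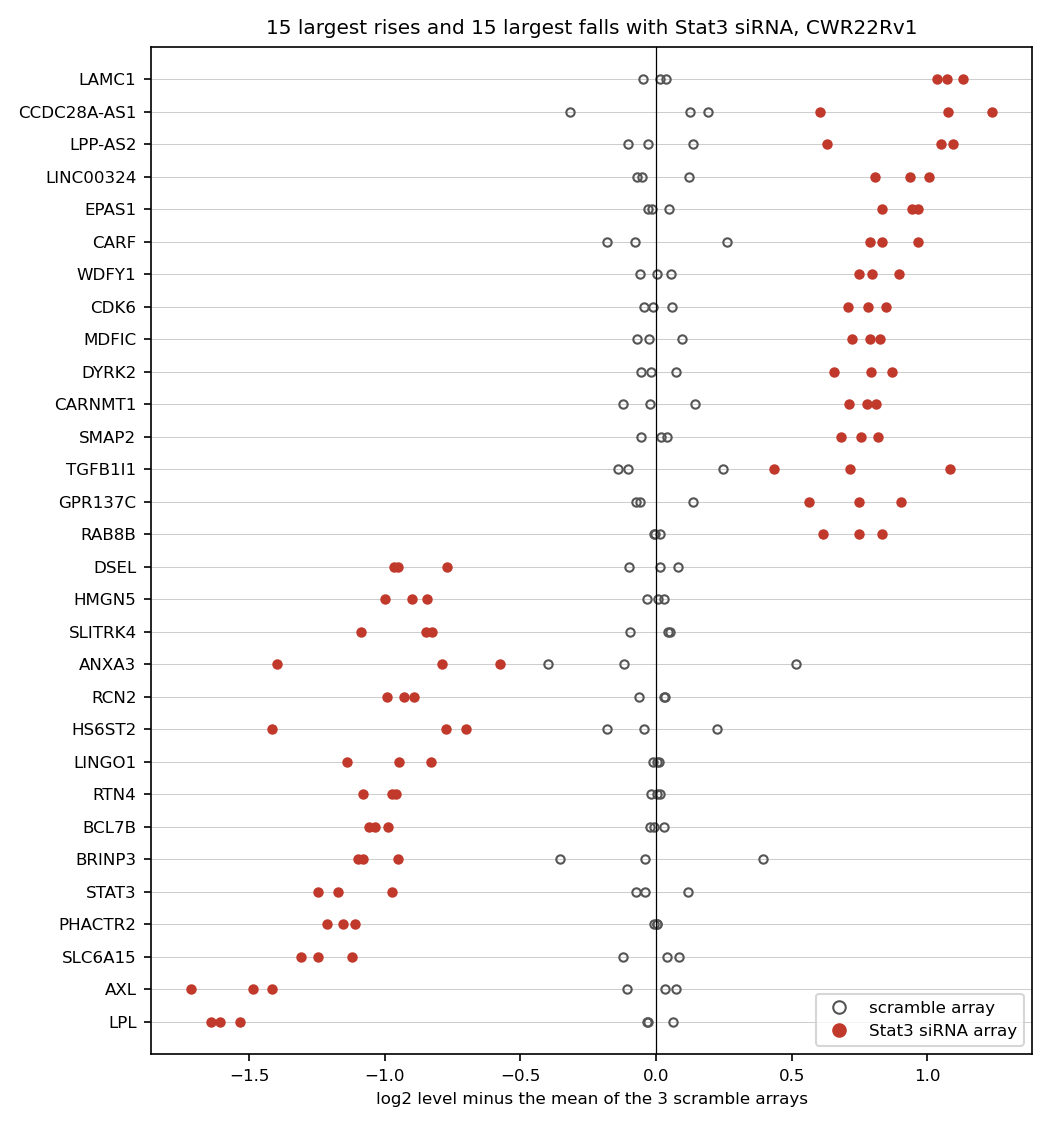
Log2 level of each of the 6 arrays minus the mean of the 3 scramble arrays (horizontal axis) for the 15 largest called rises and 15 largest called falls, with open grey points for scramble and red points for Stat3 siRNA arrays. The groups do not overlap in any of the 30 genes, as the choice of genes required, and ANXA3, BRINP3 and CCDC28A-AS1 have the widest spread among scramble arrays.

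The largest rise was LAMC1, the gamma-1 chain shared by most laminins of the basement membrane. It read 9.56, 9.48 and 9.54 on scramble and 10.56, 10.60 and 10.66 on Stat3 siRNA arrays (1.08 ± 0.062, adjusted p = 6.7e-08). EPAS1, the hypoxia-inducible factor HIF-2 alpha, read 5.42, 5.36 and 5.35 against 6.34, 6.21 and 6.32 (0.91 ± 0.079, adjusted p = 6.5e-06). Of its 2 other probe sets 1 was higher, and with the mean of all 3 probe sets EPAS1 was not called (adjusted p = 0.0693). CDK6, the G1 kinase that pairs with D cyclins, read 8.31, 8.20 and 8.24 against 8.96, 9.03 and 9.10 (0.78 ± 0.14, adjusted p = 0.00436). Of its 6 other probe sets 4 were higher and 3 called higher.

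Smaller rises followed. MDFIC, a regulator that binds transcription factors, read 8.14, 7.98 and 8.02 against 8.83, 8.77 and 8.87 (0.78 ± 0.062, adjusted p = 2.7e-06). DYRK2, a dual-specificity kinase, rose by 0.77 ± 0.11, SMAP2, which acts on ARF1 in vesicle traffic, by 0.75 ± 0.087 and RAB8B, a small GTPase of secretion, by 0.73 ± 0.077. WDFY1, an endosomal protein that binds phosphoinositides, rose by 0.81 ± 0.092, CARNMT1, the carnosine methyltransferase, by 0.77 ± 0.11, CARF by 0.86 ± 0.13 and GPR137C by 0.74 ± 0.088. TGFB1I1, the androgen receptor coactivator also called Hic-5, read 4.18, 4.53 and 4.14 against 5.0, 4.72 and 5.37 (0.74 ± 0.14, adjusted p = 0.00659).

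A set of the rises were non-coding RNAs. LPP-AS2, antisense to LPP, read 3.71, 3.88 and 3.64 against 4.79, 4.37 and 4.83 (0.93 ± 0.11, adjusted p = 0.00022). Its scramble readings were low, under the 25th percentile of 4.34 for gene means on scramble arrays. LINC00324 rose by 0.92 ± 0.19, with an adjusted p of 0.05 without Stat3 siRNA array 3. CCDC28A-AS1 read 4.07, 4.13 and 3.63 against 5.18, 4.54 and 5.02, and was not called without scramble array 1 or 3 or Stat3 siRNA array 1 or 3 (adjusted p 0.057, 0.13, 0.12 and 0.0943). Over all genes 50 of 2657 long non-coding RNAs rose (1.88%) and 15 fell (0.565%), beside 2.97% and 2.33% of 16516 protein-coding genes. The 15 largest rises included 9 genes with a further 20 probe sets, of which 17 were higher and 8 called higher.

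Genes of cell division rose together. Of 34 mitosis and G2/M genes 20 rose (58.8%, beside 2.75% of all genes) and 0 fell, with a median change of 0.23. Averaged over the 34 genes, the scramble arrays read 9.88, 9.87 and 9.87 and the Stat3 siRNA arrays 10.10, 10.07 and 10.09, so the groups did not overlap. Without scramble array 1, 2 or 3 the count was 9, 8 and 7, and without Stat3 siRNA array 1, 2 or 3 it was 7, 11 and 9. It was 19 after either further scaling and 25 with the 9 CWR22Rv1 arrays fitted alone.

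UBE2C, the ubiquitin-conjugating enzyme of the anaphase-promoting complex, read 10.23, 10.27 and 10.25 against 10.64, 10.67 and 10.67 (0.41 ± 0.063, adjusted p = 0.00122). HMMR, a spindle and hyaluronan-binding protein, read 10.56, 10.54 and 10.56 against 10.98, 10.86 and 11.01 (0.40 ± 0.068, adjusted p = 0.0026). NUSAP1 and TPX2, which bind spindle microtubules, changed by 0.32 ± 0.057 and 0.28 ± 0.055, and the kinetochore motor CENPE by 0.32 ± 0.067. These 5 kept their calls whichever array was left out. MKI67, which encodes the proliferation antigen Ki-67, read 9.15, 9.27 and 9.19 against 9.34, 9.44 and 9.31 without passing (adjusted p = 0.181). PLK1, the polo-like kinase, was measured at 0.28 (adjusted p = 0.0894), and CDC25B, MAD2L1 and AURKA were the members with values below 0.

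DNA replication and G1/S genes also rose in part. Of 37 measured, 8 rose (21.6%, beside 2.75% of all genes) and 0 fell, with a median change of 0.14. Without scramble array 1, 2 or 3 the count was 3, 2 and 2, without Stat3 siRNA array 1, 2 or 3 it was 1, 4 and 3, and after either further scaling it was 5. CDC6, which loads the replicative helicase, read 9.30, 9.17 and 9.29 against 9.72, 9.77 and 9.67 (0.47 ± 0.058, adjusted p = 0.00023). It was the member that kept its call whichever array was left out. TK1, thymidine kinase, rose by 0.30 ± 0.063 and lost its call without scramble array 3 or Stat3 siRNA array 1 (adjusted p 0.0648 and 0.0532). GINS1 and GINS2, subunits of the replicative helicase, changed by 0.29 ± 0.062 and 0.22 ± 0.051. GINS1 lost its call without scramble array 2 or Stat3 siRNA array 1 (0.0616 and 0.0692), and GINS2 without any array but Stat3 siRNA array 2 (0.055 to 0.101).

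Among 16 D cyclins, cyclin-dependent kinases, pocket proteins and kinase inhibitors, 5 rose (31.2%, beside 2.75% of all genes) and 0 fell. CDK6 and CCND1 are described above. CDK2 read 10.28, 10.22 and 10.32 against 10.60, 10.61 and 10.49 (0.29 ± 0.069, adjusted p = 0.0216) and kept its call only without Stat3 siRNA array 3 (otherwise 0.053 to 0.0973). CDKN2B, the p15 inhibitor of CDK4 and CDK6, read 5.72, 5.61 and 5.6 against 6.11, 5.99 and 6.07 (0.41 ± 0.073, adjusted p = 0.00337). CDKN3, a phosphatase that acts on CDK2, was the other, and it lost its call in 5 of the 6 fits that left out an array. CDK4 changed by 0.034 and CCND3 by 0.016. The count of 5 was 2, 3 and 2 without scramble array 1, 2 or 3, and 2, 2 and 3 without Stat3 siRNA array 1, 2 or 3. With the 9 CWR22Rv1 arrays fitted alone 9 of the list rose and 1 fell.

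**Figure D3:**
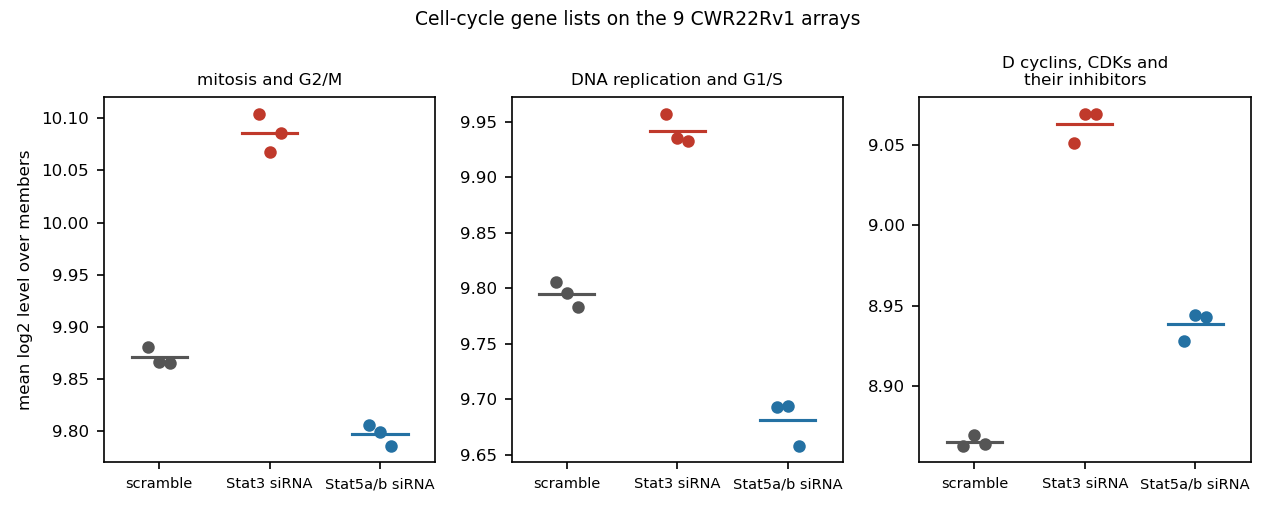
Mean log2 level over the members of 3 cell-cycle lists (vertical axis, with a separate range in each panel) on the 3 scramble, 3 Stat3 siRNA and 3 Stat5a/b siRNA arrays of CWR22Rv1, with a point for each array and a line at the group mean. Stat3 siRNA arrays lie above the others in each panel, at 10.07 to 10.10 for mitosis, 9.93 to 9.96 for replication and 9.05 to 9.07 for D cyclins and their kinases.

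Clustered histone genes, many of which are transcribed with DNA replication, had 3 rises among 50 (6.0%, beside 2.75% of all genes) and 0 falls. Their median change was 0.089. H1-2 read 7.53, 7.55 and 7.52 against 8.0, 8.02 and 8.11 (0.51 ± 0.064, adjusted p = 0.00023), and H2AC6 read 6.54, 6.55 and 6.49 against 6.92, 6.91 and 7.12 (0.46 ± 0.059, adjusted p = 0.00027). H3C6 changed by 0.55 ± 0.13 and lost its call without scramble array 1 or 2 or Stat3 siRNA array 1 or 3 (adjusted p 0.0869, 0.107, 0.111 and 0.122). Histone genes are near-identical copies, so their probe sets may read several of them.

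Immediate-early and feedback genes of the MAPK pathway leaned upward. Of 24 measured 3 rose (12.5%, beside 2.75% of all genes) and 0 fell, with a median of 0.21. At an unadjusted p under 0.05, 11 were higher (45.8%, beside 9.62% of all genes). The risers were the AP-1 components FOS and FOSL2 and PHLDA1. FOS read 5.09, 5.24 and 5.26 against 5.92, 5.81 and 5.61, PHLDA1 6.28, 6.26 and 6.03 against 6.84, 6.74 and 6.65, and FOSL2 5.45, 5.10 and 5.51 against 5.70, 5.80 and 5.90. EGR1 read 7.52, 7.42 and 7.35 against 7.89, 7.85 and 7.88 without passing (adjusted p = 0.261). The call count was 0 with the mean of all probe sets, 2 and 1 after quantile and loess normalisation, 12 with the 9 CWR22Rv1 arrays fitted alone, 1 without scramble array 3, and 0 without scramble array 1 or 2 or Stat3 siRNA array 1, 2 or 3.

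Lipid genes leaned downward. The 19 genes of fatty acid synthesis and lipid storage had a median of -0.12, with 13 below 0 and 6 above. At an unadjusted p under 0.05, 6 were lower and 1 higher. Of the 19 genes 3 fell (15.8%, beside 2.02% of all genes) and 0 rose. Beside LPL these were CPT1A, the mitochondrial gate for fatty acid oxidation (10.24, 10.18 and 10.05 against 9.87, 9.85 and 9.82), and DGAT2, which makes triglyceride (6.80, 6.85 and 6.74 against 6.41, 6.49 and 6.50). CPT1A had an adjusted p of 0.0611 without scramble array 1, and of its 3 other probe sets 1 was lower. DGAT2 had 0.054, 0.0718 and 0.0766 without scramble array 1, scramble array 2 or Stat3 siRNA array 1. The count of 3 was 1 and 2 without scramble array 1 or 2 and 2 without Stat3 siRNA array 1. With the mean of all probe sets LPL was the only one called. The list is wider than its name, since LPL releases fatty acids and CPT1A serves their oxidation. Of synthesis enzymes ACACA changed by 0.048, ACLY by -0.10, FASN by -0.12 and SCD by -0.083, none of them called. DGAT1 changed by 0.34 and was not called. Sterol synthesis showed no call among 21 genes, with 1 higher and 1 lower at an unadjusted p under 0.05. CROT, the carnitine transferase of peroxisomes and a member of neither list, read 9.38, 9.35 and 9.31 against 8.69, 8.64 and 8.71 (-0.67 ± 0.084, adjusted p = 0.00023).

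**Figure D4:**
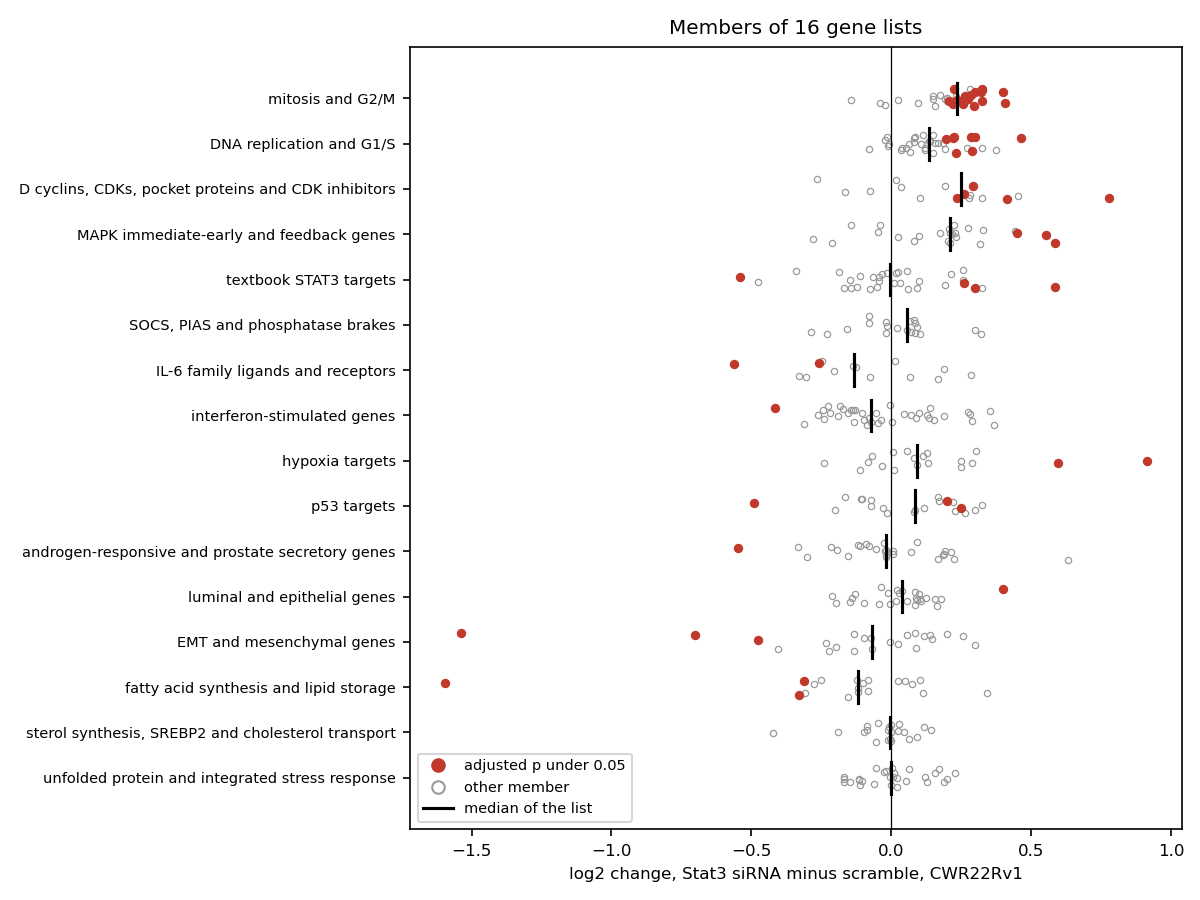
Log2 change with Stat3 siRNA in CWR22Rv1 (horizontal axis) of the members of 16 gene lists, with called members in red, other members as open grey points and a black bar at the list's median. Mitosis and G2/M genes lie to the right with 20 of 34 called, and the sterol and unfolded protein lists lie around 0 with none called.

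Mesenchymal genes had 3 falls among 23 (13.0%, beside 2.02% of all genes) and 0 rises, with a median of -0.069. AXL was the largest. TGFBI, a matrix protein induced by TGF-beta, read 5.11, 5.19 and 5.31 against 5.0, 4.46 and 4.04, and COL3A1, a fibrillar collagen, 4.78, 4.78 and 4.71 against 4.35, 4.38 and 4.12. TGFBI kept its call only without Stat3 siRNA array 1 (otherwise adjusted p 0.0503 to 0.0978) and COL3A1 lost it whichever array was left out (0.0567 to 0.156). The count was therefore 1 without scramble array 1, 2 or 3 or Stat3 siRNA array 2 or 3. Fibroblast markers share COL1A1, COL1A2 and COL3A1 with the mesenchymal list, so the lists are not separate readings. All 9 markers were measured and 2 fell, COL3A1 and LUM (22.2%, beside 2.02% of all genes). Their summed level was 46.6 to 46.8 on scramble and 44.6 to 45.2 on Stat3 siRNA arrays. LUM averaged 8.12 and 7.46 in these groups. The part of fibroblast markers in the result was not tested. Both fibroblast calls were lost whichever array was left out.

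Epithelial and androgen-responsive genes gave few calls. A rise in 3.7% of the first list and a fall in 3.7% of the second stood beside 2.75% and 2.02% of all genes. Of 27 luminal and epithelial genes 1 rose, the splicing regulator ESRP1 (0.40 ± 0.082, adjusted p = 0.00923), which had adjusted p-values of 0.0507 without scramble array 2 and 0.0545 without Stat3 siRNA array 1. CDH1, E-cadherin, read 11.83, 11.81 and 11.85 against 12.04, 11.95 and 12.05 without passing (adjusted p = 0.254). Of 27 androgen-responsive genes 1 fell, the transporter ABCC4 (6.44, 6.38 and 6.31 against 6.02, 5.65 and 5.81), which kept its call whichever array was left out but not with the mean of all probe sets. KLK3, which encodes prostate-specific antigen, read 6.70, 6.63 and 6.94 against 6.68, 6.52 and 6.61, and its groups overlapped.

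Stress, death and hypoxia lists moved in few genes. Of 19 hypoxia genes 2 rose (10.5%, beside 2.75% of all genes), EPAS1 and BNIP3L. BNIP3L, a mitophagy receptor, read 9.10, 9.05 and 9.02 against 9.69, 9.59 and 9.68 (0.60 ± 0.077, adjusted p = 0.00027). Of 21 p53 targets SESN1 and CCNG1 rose by 0.25 and 0.20 and TP53I3 fell by 0.49. These are 9.52% and 4.76% of the list, beside 2.75% and 2.02% of all genes. SESN1 kept its call only without scramble array 2 (otherwise 0.0774 to 0.162), CCNG1 lost it whichever array was left out (0.0725 to 0.174), and TP53I3 lost it without scramble array 1 or 3 or Stat3 siRNA array 2 (0.108, 0.06 and 0.101). Of 26 BCL2 family and apoptosis genes 1 fell (3.85%, beside 2.02% of all genes). It was PMAIP1, which encodes the death inducer NOXA (-0.48 ± 0.13, adjusted p = 0.0444), and it lost its call whichever array was left out (0.089 to 0.139). Interferon-stimulated genes had 1 fall among 39 (2.56%, beside 2.02% of all genes), DTX3L, which lost its call whichever array was left out (0.111 to 0.156). The 28 genes of the unfolded protein and integrated stress response had no call, with 4 higher and 3 lower at an unadjusted p under 0.05. The same numbers were called when the 9 CWR22Rv1 arrays were fitted alone. Clock genes had 2 rises among 12 (16.7%, beside 2.75% of all genes). BMAL1, the core activator, read 7.74, 7.52 and 7.59 against 8.03, 7.91 and 7.96 (0.35 ± 0.062), while PER2 (0.71 ± 0.18) lost its call whichever array was left out (0.0577 to 0.118).

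Invasion proteases were mixed, with 8.0% of the list rising and 4.0% falling beside 2.75% and 2.02% of all genes. Of 25 genes ADAM17, the shedding protease that also cleaves the IL-6 receptor, read 8.28, 8.20 and 8.12 against 8.56, 8.54 and 8.47 and rose. MMP10 rose (2.90, 2.91 and 3.01 against 3.39, 3.18 and 3.41) and PLAU, urokinase, fell (4.79, 4.38 and 4.8 against 4.26, 4.21 and 4.16). The scramble readings of MMP10 lay under 3.14, the 10th percentile of gene means on scramble arrays. ADAM17 was not called without scramble array 3 or Stat3 siRNA array 1 (adjusted p 0.0728 and 0.0586). MMP10 was not called without scramble array 1 or 2 or Stat3 siRNA array 1 or 3 (0.0765 to 0.095), and PLAU was called only without scramble array 2 (otherwise 0.072 to 0.146).

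Among integrins and laminins, 16 genes, LAMC1 rose and ITGAV, the integrin alpha-V chain, fell, reading 10.68, 10.63 and 10.72 against 10.28, 10.32 and 10.37. Each is 6.25% of the list, beside 2.75% of all genes rising and 2.02% falling. ITGAV lost its call without scramble array 3 or Stat3 siRNA array 1 (0.0654 and 0.0624).

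Membrane transporters and zinc finger genes were the largest lists. Of 388 solute carriers 7 rose and 15 fell, shares of 1.8% and 3.87% beside 2.75% and 2.02% of all genes. With the mean of all probe sets 4 rose and 8 fell, and with the CWR22Rv1 arrays alone 15 rose and 30 fell. The count of falls was 8, 7 and 8 without scramble array 1, 2 or 3, and 8, 9 and 9 without Stat3 siRNA array 1, 2 or 3, and that of rises 0 to 2. SLC11A2, the divalent metal transporter DMT1, read 11.12, 11.06 and 11.07 against 10.34, 10.34 and 10.33 (-0.75 ± 0.064, adjusted p = 5.5e-06). SLC25A17, a peroxisomal carrier, read 9.32, 9.22 and 9.42 against 8.67, 8.62 and 8.72 (-0.65 ± 0.070), and SLC39A14, a zinc and iron importer, changed by -0.45 ± 0.056. Of 503 ZNF genes 9 rose and 8 fell, shares of 1.79% and 1.59%, and with any single array left out 1 to 4 rose and 3 to 5 fell. ZNF532 changed by -0.49 ± 0.078 and ZNF239 by -0.44 ± 0.067.

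Housekeeping systems gave few or no calls. None of 22 glycolysis, 39 oxidative phosphorylation, 34 cytosolic ribosomal, 27 proteasome or 30 spliceosome genes was called by limma. At an unadjusted p under 0.05 these lists held 1, 1, 1, 2 and 6 genes in the same order, beside 9.62% of all genes higher and 7.27% lower. Of 12 RNA interference genes AGO4 rose (0.47 ± 0.084) and DICER1 fell (-0.38 ± 0.081), the latter not without scramble array 3 or Stat3 siRNA array 1 (0.056 and 0.0586). Each is 8.33% of that list, beside 2.75% of all genes rising and 2.02% falling.

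The same Stat3 siRNA comparison in DU145, on separate arrays, called 1486 rises (7.51%) and 1631 falls (8.25%). DU145 arrays were more spread, with a median gene SD of 0.112 and 0.126 in scramble and Stat3 siRNA groups beside 0.0724 and 0.0731 in CWR22Rv1, so the counts are not set against each other. Of the 544 CWR22Rv1 rises 338 also rose in DU145, 62.1% of the CWR22Rv1 rises and 22.7% of the DU145 rises. Of the 400 falls 255 also fell, 63.8% and 15.6%. The changes in the lines correlated at 0.349 over all genes and at 0.741 over the 944 genes selected by their call in CWR22Rv1, both across genes, which are not independent replicates. LAMC1, PHACTR2, BCL7B and RTN4 changed by 1.26, -1.28, -1.45 and -0.90 in DU145, all called there.

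**Figure D5:**
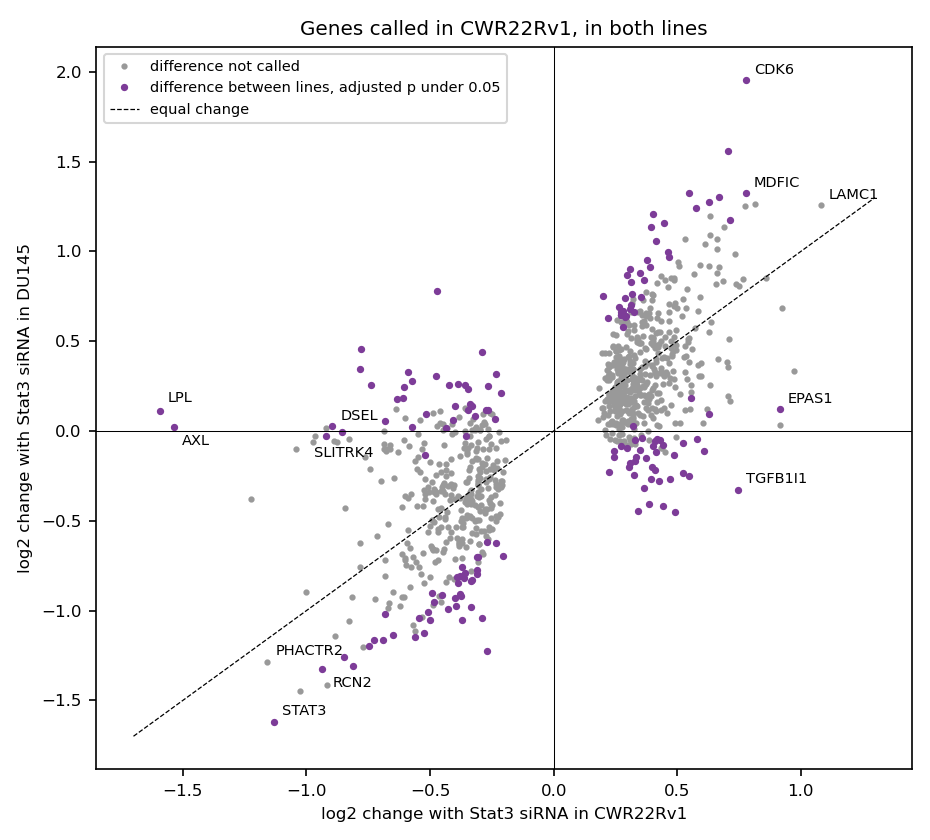
Log2 change with Stat3 siRNA in DU145 (vertical axis) against CWR22Rv1 (horizontal axis) for the 944 genes called in CWR22Rv1, in purple where the difference between the lines was itself called. LPL and AXL lie at the far left near 0 on the DU145 axis, and CDK6 lies above the dashed line of equal change.

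The effect differed between the lines for 359 genes more positive in CWR22Rv1 (1.82%) and 234 more negative (1.18%). With any one of the 12 arrays left out the total of 593 became 292 to 780. Among CWR22Rv1 rises 78 differed and among falls 79. LPL changed by 0.11 in DU145 (difference -1.71 ± 0.33, adjusted p = 0.0112) and AXL by 0.025 (difference -1.56 ± 0.31, adjusted p = 0.012). SLITRK4 and DSEL changed by -0.027 and 0.028 in DU145 and also differed, DSEL not without scramble array 1 or 3 or Stat3 siRNA array 1 or 2 of CWR22Rv1 or scramble array 1 of DU145 (highest adjusted p 0.0641). EPAS1 rose in CWR22Rv1 with 0.12 in DU145 (difference 0.79 ± 0.11, adjusted p = 0.00182), and CDK6 rose in both, by 1.96 in DU145 (difference -1.18 ± 0.20, adjusted p = 0.00563). The differences for LPL, AXL, SLITRK4, EPAS1 and CDK6 were called whichever of the 12 arrays was left out. The mitosis list held 1 gene whose effect differed between the lines and the replication list 3, beside DU145 medians of 0.21 and 0.17.

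Genes called in opposite directions in the lines numbered 16. Each had a called difference, which the choice by opposite calls on the same arrays made nearly certain. CD44, a hyaluronan receptor, fell by 0.29 in CWR22Rv1 and was higher by 0.44 in DU145, and SEMA3C, a secreted semaphorin, fell by 0.27 beside 0.25. IFNAR2 fell by 0.23 beside 0.32. IGF2BP3, an RNA-binding protein, rose by 0.39 beside -0.27, GALNT3, a mucin-type glycosyltransferase, by 0.38 beside -0.41, and SLC40A1, the iron exporter ferroportin, by 0.49 beside -0.45. CDH1, at 0.18 in CWR22Rv1, fell in DU145 (-0.98), and the difference was 1.16 ± 0.11 (adjusted p = 0.000104).

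Of the 5 largest differences between the lines in each direction, 9 lay in genes that CWR22Rv1 did not call, and LPL was the exception. FGFBP1, a carrier of fibroblast growth factors, changed by 0.52 (adjusted p = 0.0934) beside -1.56 in DU145, and KRT4 by 0.094 beside -1.77, a difference of 1.86 that was not called whichever CWR22Rv1 array was left out. In the other direction TNFRSF9, the costimulatory receptor 4-1BB, changed by -0.13 beside 1.99 and ADAM12, a metalloprotease, by -0.29 beside 1.39.

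Stat5a/b siRNA was compared with Stat3 siRNA directly, since both share the scramble arrays. It left 930 genes higher (4.7%) and 1196 lower (6.05%), 2126 in all and 1388 to 1640 with any one array left out. STAT3 was 1.27 ± 0.090 higher with Stat5a/b siRNA and STAT5B differed by -0.79. STAT5A, the other target of that siRNA, differed by -0.22 and was not called. LPL read higher by 1.45 ± 0.23 (adjusted p = 0.00063), PHACTR2 by 1.02 ± 0.079, RTN4 by 0.85 ± 0.054 and CROT by 1.21 ± 0.084. AXL differed by 0.061 ± 0.22 (adjusted p = 0.906), LAMC1 by 0.036 ± 0.062 (adjusted p = 0.781) and CDK6 by 0.060 ± 0.14 (adjusted p = 0.849). The changes of AXL, LAMC1 and CDK6 were thus not told apart from those with Stat5a/b siRNA. Of the 15 largest rises with Stat3 siRNA 8 were called as different between the siRNAs, and of the 15 largest falls, STAT3 among them, 9.

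The cell-cycle lists differed between the siRNAs. Of 34 mitosis genes 26 were lower with Stat5a/b than with Stat3 siRNA and 0 higher, and of 37 replication genes 23 and 0. Their median differences were -0.26 and -0.28. CDC6 differed by -0.65 (adjusted p = 2.15e-06) and UBE2C by -0.39 (adjusted p = 0.000674). CDKN1A was higher with Stat5a/b siRNA by 0.77 (adjusted p = 3.99e-05), and CDKN2B differed by -0.84, EPAS1 by -0.74 and BNIP3L, a called rise with Stat3 siRNA, by -1.02. The largest differences downward were REEP3 (-1.60), LCOR (-1.41), EGR1 (-1.28), FBXO8 (-1.25) and PLPPR4 (-1.25), and upward, beside LPL and STAT3, CGA (1.39) and GPNMB (1.31).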

How the data were processed

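Total RNA was hybridised to Affymetrix arrays, and the authors deposited log2 values per probe set. Per the submitters' processing notes RMA and limma were used, in roles and versions not given in the sources used here. The deposited log2 values, 1.73 to 14.3 on the 6 arrays with array medians of 5.162 to 5.189, were used without further scaling, and how far each lay above background is unknown. Of 54675 probe sets 41091 had 1 gene symbol, 1801 several and 11721 none, and 62 were control probe sets. Entrez identifiers matched the RefSeq table of GRCh38.p14 for 41037.

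All 18 arrays, as 6 groups, entered 1 linear model (limma 3.58.1, R 4.3.3), with 12 residual degrees of freedom and a prior of 3.82. P-values are two-sided and adjusted by Benjamini-Hochberg over 19775 genes in each comparison. The standard error pools the spread of all 6 groups, and 3 arrays a group limit the precision. The fit was tested on simulated data.

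Named were STAT genes, the 15 largest called rises and falls with non-overlapping arrays, up to 4 called members of each of 49 lists with 3 or more calls, fixed STAT3-related genes, and the 5 largest differences each way between lines and between siRNAs. Others described were chosen after their values were seen. Members and lists were chosen with earlier results of these data known.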

Additional observations from a re-analysis of the deposited data

Results flagged for a closer look

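The groups held 3 arrays each, too few for a test of single arrays. Named genes whose response to Stat3 siRNA differed between the lines, by the limma test of the difference, are given as the CWR22Rv1 change minus the DU145 change, from 3 arrays a group. Among targets and large changes the difference was 0.49 for STAT3, 0.79 for EPAS1, -1.18 for CDK6, -0.55 for MDFIC, 1.07 for TGFB1I1, -1.71 for LPL, -1.56 for AXL, 0.38 for RCN2, -0.89 for SLITRK4 and -0.92 for DSEL. Among cell-cycle, p53, lipid, histone and transporter genes it was 0.53 for CDKN2B, -0.35 for GINS1, -0.41 for GINS2, -0.55 for CCNG1, 0.49 for CPT1A, -0.47 for DGAT2, 0.80 for H3C6 and 0.45 for SLC11A2. For JAK1 it was -0.37 and for CDH1 1.16. The largest differences upward were 2.08 for FGFBP1, 1.86 for KRT4, 1.25 for LXN, 1.24 for BIN1 and 1.20 for SELENOP, and downward -2.12 for TNFRSF9, -2.02 for LINC00973, -1.72 for BCL2A1, the -1.71 for LPL given above and -1.68 for ADAM12. For GPNMB it was 0.96. Among genes described after their values were seen it was 0.59 for LIFR, -0.55 for IFNAR2, 0.44 for CDC25B, 0.49 for ESRP1, 0.45 for BMAL1, -0.79 for PMAIP1, -0.50 for AGO4, -1.13 for FHL2, -0.73 for CD44, -0.51 for SEMA3C, 0.66 for IGF2BP3, 0.79 for GALNT3 and 0.94 for SLC40A1. FHL2 averaged 4.15 on the scramble arrays of CWR22Rv1, a low level, and 10.57 on those of DU145. The CWR22Rv1 arm of FGFBP1, KRT4, LXN, BIN1, SELENOP, TNFRSF9, LINC00973, BCL2A1, ADAM12, GPNMB, JAK1, CDC25B and CDH1 was not called. With an array left out, the difference lost its call in 11 of 12 fits for STAT3, in 10 for GINS1, KRT4, SELENOP and CDC25B, in 9 for PMAIP1, in 8 for H3C6, AGO4 and ESRP1, in 7 for JAK1 and LIFR, in 5 for DSEL and in 4 for DGAT2, and in none of the 12 for the other genes named here.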

How the results depend on the processing

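Called genes with Stat3 siRNA in CWR22Rv1 numbered 944 (544 higher, 400 lower), and 2059 (1197 and 862) when the 9 CWR22Rv1 arrays were fitted alone, 920 of them shared. Leaving out one array gave 448 to 547, with 232 to 335 higher and 212 to 253 lower. Genes differing between the lines numbered 593, 904 with an intensity trend and robust moderation, and 292 to 780 with one array left out. Genes differing between Stat5a/b and Stat3 siRNA numbered 2126, 3775 with the CWR22Rv1 arrays alone and 1388 to 1640 with one array left out. Quantile and cyclic loess normalisation, the mean of all probe sets and a filter at a mean log2 of 5 kept these counts within 1.5 times, as did the trend for the first and last. STAT3 was called under every setting, with changes of -1.06 to -1.21. The main model did not pair arrays by replicate number. Deviations of same-numbered scramble and Stat3 siRNA arrays correlated at 0.005, 0.034 and -0.009, and those of differently numbered ones at -0.059 to 0.052. For scramble and Stat5a/b siRNA arrays the same-numbered values were higher, at 0.139, 0.091 and 0.053, beside -0.104 to 0.018. Some pairing by number may therefore be present in the series. With the replicate block, 1198 genes (704 and 494) were called, 903 between the lines and 2587 between the siRNAs. Of 69 named genes called beside STAT3, 29 lost the call without some array, 16 with the mean of all probe sets, 4 after loess, 3 with the CWR22Rv1 arrays alone, 2 after quantile normalisation, 1 with the trend and 0 with the block. Of 33 not called, 9 gained it with the CWR22Rv1 arrays alone. No named gene reversed. Calls were rarer at low signal: 0.121% of genes in the lowest quartile of level rose and 5.0% in the highest.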

Other observations

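Among lists the report leaves out, 77 mitochondrial ribosomal genes had 0 rises and 2 falls, with a median change of -0.048 and 56 members below 0. Of 12 heat shock chaperones HSPA4 fell but lost its call whichever array was left out (adjusted p 0.0558 to 0.154), and 11 had values below 0. Of 11 housekeeping controls TFRC, the transferrin receptor, and HPRT1 fell, and both lost the call without some arrays, TFRC without scramble array 1 or 3 or Stat3 siRNA array 1 or 2 (adjusted p 0.0519 to 0.0578) and HPRT1 without any array but Stat3 siRNA array 3 (0.051 to 0.124). DKK1, a secreted Wnt inhibitor, read 9.56, 9.56 and 9.62 on scramble and 9.21, 9.23 and 9.25 on Stat3 siRNA arrays (-0.35 ± 0.055, adjusted p = 0.00141 in limma), and was the only call among 28 Wnt and Notch genes.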
